A study of Mus with 5 samples.

Results

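*Nppa*, *Nppb*, *Ankrd1*, *Irx4* and *Hopx* are 5 genes used as markers of the chamber and trabecular myocardium, and they are described here in mouse hearts in which *Bmp2* is switched on throughout the myocardium. They are a list of names, drawn up with earlier results of these pools known, and all 5 were found among the 12857 genes with values. RNA-seq was compared between 3 transgenic pools, of genotype *Nkx2.5* Cre/+*;Bmp2* tg/+, and 2 WT pools, each made from the ventricles and valves of 4 embryos at E14.5, after the atria had been cut away. In the transgenic embryos, Cre from the *Nkx2.5* locus, which is active in cardiac progenitors, removes a floxed stop cassette from the *Rosa26* locus, and the CAG promoter then drives a *Bmp2* cDNA linked through an IRES to eGFP. The transgenic line came from 1 embryonic stem cell clone, made in cells of mixed 129S6/SvEvTac and C57BL/6Ncr origin, and the strain of the embryos is not given in the sources used here. The control pools are labelled only as WT. The cross that the study describes, of *Bmp2* tg/+ males with *Nkx2.5* Cre/Cre females, gives littermates that carry *Nkx2.5* Cre/+ without the transgene, and whether the WT pools are such littermates is not given in the sources used here. If they are not, the Cre allele and the transgene cannot be told apart. A pool averages 4 hearts, and the authors excluded 1 WT pool because it clustered poorly. The WT spread thus rests on the 2 pools left and may be understated, which can make p-values too small. Values are counts per 1000000 reads (CPM), and the reads behind them came to between 7427905 and 10564780 per library.

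The chambers of the heart balloon out of the primitive tube as their muscle switches on a set of genes for contraction, conduction and secretion. The myocardium of the atrioventricular canal, where *Bmp2* is normally made, keeps that set off through T-box repressors. In the fetal ventricle the wall consists of an outer compact layer and inner ridges called trabeculae, and *Nppa* marks the trabeculae. The comparison addresses whether markers of chamber muscle differ when *Bmp2* is no longer restricted to the canal.

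*Ankrd1*, which encodes a cardiac ankyrin repeat protein of the sarcomere and nucleus, and *Irx4*, which encodes a homeodomain factor of the ventricle, were higher in transgenic than in WT hearts, though neither call held in every alternative and that of *Ankrd1* was lost in 7 of 15. The values of the natriuretic peptide genes *Nppa* and *Nppb* and of *Hopx* overlapped between the genotypes. All of these are values of whole tissue, in which fewer cells of a type and less RNA per cell cannot be told apart.

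*Nppa* encodes atrial natriuretic factor, a peptide hormone secreted by cardiomyocytes of the chambers. *Nppa* (ENSMUSG00000041616, chromosome 4 of GRCm38, 148000722 to 148002074) measured 778, 786 and 925 CPM in transgenic pools 1, 2 and 3, against 875 and 890 CPM in WT pools 1 and 2. Transgenic pools 1 and 2 were the lowest of the 5 pools and transgenic pool 3 was the highest, so the WT values fell inside the transgenic range. The means were 829 ± 82.5 CPM (SD, n = 3) in transgenic hearts and 883 ± 10.4 CPM (SD, n = 2) in WT hearts. The log2 fold change of log2(CPM + 0.5), transgenic minus WT, was -0.094 (SE, the standard error, 0.071, limma adjusted p = 0.518), and its 95% interval allows a transgenic level between 0.844 and 1.04 of the WT level. Each pool held at least 6640 reads of *Nppa*, a counting error of at most 1.23% of the value. The variance among transgenic pools was 71.0 times what counting alone gives, against 1.03 times between the WT pools, so the transgenic spread was far wider than counting error. Without transgenic pool 3 the log2 fold change was -0.175, and it was also short of the threshold of 0.05 (limma adjusted p = 0.0919, from 0.0919 to 0.796 over the 15 alternatives).

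*Nppb*, which encodes brain natriuretic peptide, lies beside *Nppa*, with 13516 bases between the genes. *Nppb* (ENSMUSG00000029019, chromosome 4 of GRCm38, 147985786 to 147987205) measured 70.0, 68.9 and 61.0 CPM in transgenic pools 1, 2 and 3, against 61.3 and 69.3 CPM for WT. Each genotype had pools near 61 and pools near 69 CPM, and the values overlapped. The means were 66.7 ± 4.90 CPM (SD, n = 3) and 65.3 ± 5.64 CPM (SD, n = 2) in transgenic and WT hearts. They differed by a log2 fold change of 0.029 (SE 0.079, limma adjusted p = 0.890). With 5 pools, the 95% interval of the difference allows a transgenic level between 0.909 and 1.15 of the WT level. The sign of this difference turned without transgenic pool 1 (-0.0073) and without WT pool 1 (-0.058).

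Transgenic pool 3 had the highest *Nppa* value of the 5 pools and the lowest *Nppb* value. The ratio of *Nppa* to *Nppb* CPM, compared only between pools since it is not corrected for gene length, was 11.1, 11.4 and 15.1 in transgenic pools 1, 2 and 3 and 14.3 and 12.8 in the WT pools. Transgenic pool 3 was above both WT pools and the other transgenic pools were below them, so these neighbouring genes did not keep the same ratio from pool to pool.

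*Ankrd1* is made in cardiomyocytes, where its protein binds titin and also acts in the nucleus, and its expression is known to rise with mechanical load. *Ankrd1* (ENSMUSG00000024803, chromosome 19 of GRCm38, 36111965 to 36119844) measured 828, 869 and 635 CPM in transgenic pools 1, 2 and 3, against 538 and 605 CPM in WT pools 1 and 2. All 3 transgenic pools were above both WT pools, with transgenic pool 3 only slightly above WT pool 2 and far below the other transgenic pools. The mean was 777 ± 125 CPM (SD, n = 3) in transgenic hearts and 572 ± 47.3 CPM (SD, n = 2) in WT hearts, a ratio of 1.36. The log2 fold change was 0.43 (SE 0.099, 95% interval 0.22 to 0.64, limma adjusted p = 0.0273). The spread was wide for a gene of this table, since 87.3% of genes had a smaller residual SD, and the variance among transgenic pools was 168 times what counting gives. An exact permutation test of the log2 values gave a two-sided p of 0.2, in a design of 3 pools against 2 that cannot go below 0.1.

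The call of *Ankrd1* did not hold when most single pools were left out. It was lost without transgenic pool 1 (log2 fold change 0.38, limma adjusted p = 0.0800), transgenic pool 2 (0.34, 0.0666), WT pool 1 (0.35, 0.352) or WT pool 2 (0.52, 0.172), and it held without transgenic pool 3, where the log2 fold change was 0.57 (limma adjusted p = 0.000178). It was also lost with quantile normalization, with DESeq2 and with limma without its variance trend, and was past the threshold in 8 of the 15 alternatives. The log2 fold change was above 0 in all 15 of them.

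*Irx4* belongs to the Iroquois family and is expressed in ventricular and not atrial myocardium. *Irx4* (ENSMUSG00000021604, chromosome 13 of GRCm38, 73259589 to 73269622) measured 93.1, 95.7 and 85.9 CPM in transgenic pools 1, 2 and 3, against 74.4 and 70.9 CPM in WT pools 1 and 2. The groups were apart, with every transgenic pool above both WT pools and a gap between the groups wider than the range within either. The mean was 91.5 ± 5.05 CPM (SD, n = 3) in transgenic hearts and 72.7 ± 2.49 CPM (SD, n = 2) in WT hearts, a ratio of 1.26. The log2 fold change was 0.33 (SE 0.067, 95% interval 0.19 to 0.47, limma adjusted p = 0.0134), and the exact two-sided permutation p was 0.1, the smallest this design can give. The variance among pools was 2.35 times that of counting in transgenic hearts and 0.710 times in WT hearts, with 529 to 973 reads per pool. The spread of *Irx4* within each group was thus close to counting error. The call was past the threshold in 12 of the 15 alternatives. It was lost without WT pool 1 (log2 fold change 0.36, limma adjusted p = 0.146), without WT pool 2 (0.30, 0.216) and without the variance trend.

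*Hopx* encodes a small homeodomain protein that does not bind DNA itself and that works with serum response factor and Smad proteins in cardiomyocyte precursors. *Hopx* (ENSMUSG00000059325, chromosome 5 of GRCm38, 77086986 to 77115123) measured 150, 165 and 149 CPM in transgenic pools 1, 2 and 3, against 150 and 158 CPM for WT. Transgenic pool 2 was the highest, transgenic pool 3 was the lowest, and both WT pools fell between them. The means were 155 ± 8.79 CPM (SD, n = 3) and 154 ± 5.36 CPM (SD, n = 2), with a log2 fold change between them of 0.0030 (SE 0.061, 95% interval -0.13 to 0.13, limma adjusted p = 0.989). Its sign turned with libraries rescaled to the same total (-0.016), without transgenic pool 2 (-0.043) and without WT pool 1 (-0.032). The RefSeq annotation of GRCm38.p6 places a long noncoding RNA, *Hopxos*, and a small nucleolar RNA within the span of *Hopx*. Whether the counting used strand is not given in the sources used here, so reads of *Hopx* and *Hopxos* may not be separated.

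**Figure D1:**
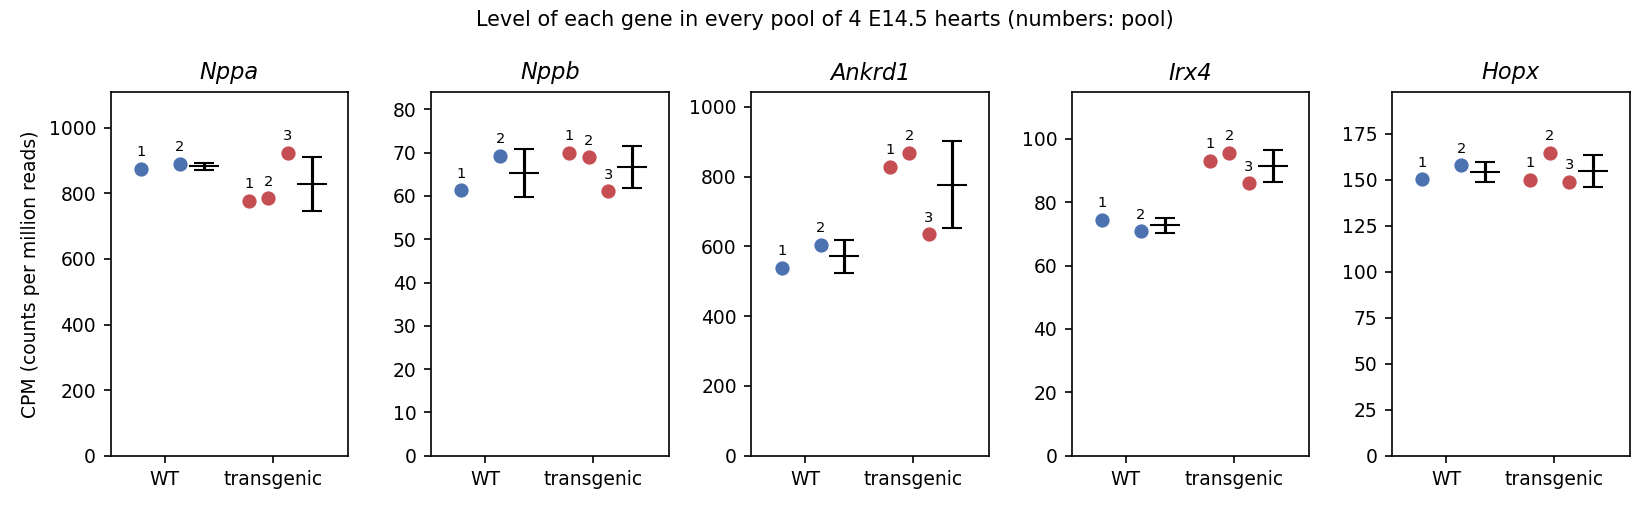
CPM of each gene (vertical axis, from 0) in WT pools (blue, n = 2) and transgenic pools (red, n = 3), with the pool number above each point and, beside the points, a horizontal line for the mean and bars for ± 1 SD. All transgenic pools are above both WT pools for *Ankrd1* (635 to 869 against 538 and 605 CPM) and *Irx4* (85.9 to 95.7 against 74.4 and 70.9 CPM), and the genotypes overlap for *Nppa*, *Nppb* and *Hopx*.

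By count, 2 of the 5 genes were past the limma adjusted p threshold of 0.05, both higher in transgenic hearts, and 3 were not past it in either direction. Over all 12857 genes, 2.82% were past it, 1.22% higher and 1.59% lower in transgenic hearts. The transgenic pools did not overlap with the WT pools for the same 2 of 5 genes, which is near the 35.7% of all genes whose groups did not overlap (17.7% with the transgenic pools above and 18% with them below), so the separation of the pools by itself says little about these genes. The median log2 fold change was 0.029 over the 5 genes and 0.0045 over all genes. *Ankrd1* and *Irx4* ranked 250 and 155 by p among all genes. In the tests on recovered reads, both were past the threshold with edgeR's exact test (3.77% of all genes were) and with its quasi-likelihood test (3.1%), and *Irx4* alone of the 5 was past it with DESeq2 (1.78%).

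**Figure D2:**
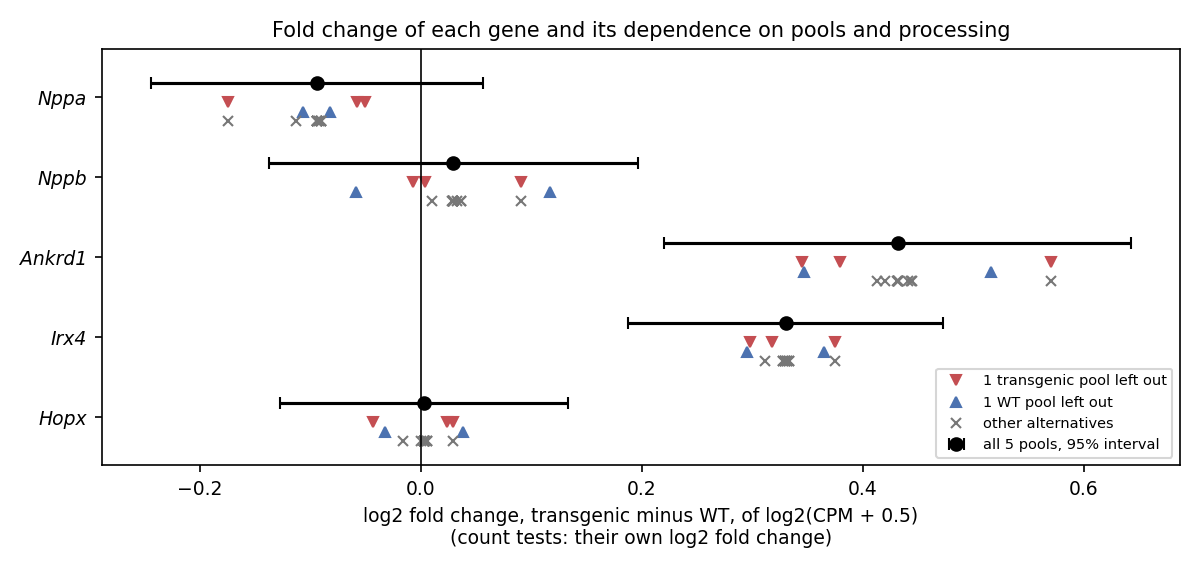
Log2 fold change of each gene, transgenic minus WT (horizontal axis, log2 units; the vertical line is 0). Black points with bars are the fits of all 5 pools with 95% intervals, triangles are fits with 1 transgenic pool (red) or 1 WT pool (blue) left out, and crosses are the other alternatives. *Ankrd1* (0.34 to 0.57) and *Irx4* (0.30 to 0.37) are above 0 in every fit, while the fits of *Nppb* and *Hopx* fall on both sides of 0 and those of *Nppa* run from -0.175 to -0.050.

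A gene past the threshold beside one that is not past it is no test of a difference between them, so each gene was also set against each other gene within the same pool. There were 10 ratios of CPM. Those that set *Ankrd1* or *Irx4*, whose pools were already apart, against *Nppa*, *Nppb* or *Hopx* were apart too, so their separation adds nothing to that of the single genes. The ratio of *Nppb* to *Irx4* was 0.752, 0.721 and 0.710 in transgenic pools 1, 2 and 3 and 0.824 and 0.977 in the WT pools. The ratio of *Irx4* to *Hopx* was 0.620, 0.580 and 0.576 in transgenic pools and 0.495 and 0.449 in WT pools. *Irx4* was thus higher relative to either gene in every transgenic pool. The ratio of *Nppa* to *Ankrd1* was 0.940, 0.905 and 1.46 in transgenic pools and 1.63 and 1.47 in WT pools, where transgenic pool 3 nearly reached WT pool 2. The ratio of *Ankrd1* to *Irx4* was 8.89, 9.08 and 7.39 in transgenic pools and 7.23 and 8.53 in WT pools, and overlapped. The smallest exact two-sided permutation p of a ratio was 0.1, and the smallest adjusted over the 10 ratios was 0.333. Since this exact test cannot go below 0.1 with 3 pools against 2, it could not have called a difference between the genes at 0.05.

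Related genes could be placed only in part, because a symbol was paired with an Ensembl identifier for these 5 genes and for the genes that the study lists as changed in the same pools. Of 123 listed genes, 35 were paired in this way, and since they were selected on these samples their directions are not independent evidence and no share of changed genes is given. In limma without its variance trend, 0 of the 52 identifiers of the 5 genes and of the related genes were past the threshold. Some listed genes also lost calls in alternatives other than this fit and those that omit a pool. Of 16 alternatives, counting the one with no filter, *Mycn* was past the threshold in 6, *Hand1* in 8, and *Tcap* and *Prkg1* in 9. *Gata4* and *Kcne1* were past it in 10, *Cyr61*, *Tie1* and *Myh11* in 11, and *Gja5* and *Sema3a* in 12. Leaving out a WT pool leaves 1 WT pool, and calls over all genes then dropped from 362 to 45 without WT pool 1 and to 43 without WT pool 2, so a call lost in this way need not go with a smaller difference.

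Of 17 transcription factors known to act on *Nppa* or *Nppb*, 9 were paired. *Gata4*, a zinc finger activator of both peptide genes, was at 286, 282 and 264 CPM in transgenic pools 1, 2 and 3 and at 233 and 240 CPM in WT pools, a log2 fold change of 0.23 (limma adjusted p = 0.0411). *Tbx3*, a T-box repressor of chamber genes, was at 17.2, 18.8 and 17.4 CPM in transgenic pools and at 11.7 and 10.1 CPM in WT pools, a log2 fold change of 0.69 (limma adjusted p = 0.00547). Both were higher in each transgenic pool than in either WT pool. *Myocd*, which encodes myocardin, the coactivator of serum response factor, was at 98.5, 81.5 and 85.2 CPM in transgenic pools and at 113 and 115 CPM in WT pools, a log2 fold change of -0.37 (limma adjusted p = 0.0136). *Myocd* was lower in every transgenic pool. It was named through the study's list of changed genes, and its difference from *Nppa* and *Nppb*, which overlapped, was not tested. *Myocd* and *Gata4* are also the 2 paired genes of 8 partners listed for *Hopx*. *Tbx20*, *Hand1*, *Hand2* and *Hey2*, further factors of the chambers, were also higher, with log2 fold changes of 0.41, 0.50, 0.32 and 0.24 (limma adjusted p = 0.00162, 0.0463, 0.0132 and 0.0267). *Gata6* had a log2 fold change of 0.21 that was not past the threshold (limma adjusted p = 0.0591). *Tead1* was paired with 2 identifiers, at log2 fold changes of 0.34 and -0.39, and is uncertain. Over the fits that omit 1 pool, log2 fold changes ran from 0.20 to 0.26 for *Gata4*, from 0.58 to 0.79 for *Tbx3* and from -0.45 to -0.31 for *Myocd*. The directions held while calls were lost. Without WT pool 1 the calls of *Gata4* and *Myocd* were lost (limma adjusted p = 0.307 and 0.198), as they were without WT pool 2 (0.241 and 0.216). The call of *Gata4* was also lost without transgenic pool 1 (0.102) or 2 (0.0826), and that of *Tbx3* without WT pool 2 (0.132). Both *Tead1* identifiers lost theirs without WT pool 1 (0.227 and 0.148).

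The calls of *Tbx20*, *Hand1*, *Hand2* and *Hey2* were lost without WT pool 1 (limma adjusted p = 0.156, 0.278, 0.113 and 0.227). All but *Tbx20* lost theirs without WT pool 2 (0.224 for *Hand1*, 0.216 for *Hand2* and 0.242 for *Hey2*), and *Hand1* and *Hey2* also without transgenic pool 1 (0.0748 and 0.0561) or 2 (0.183 and 0.0632). All 4 genes were higher in every one of these fits.

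On the side of the sarcomere, 2 of 9 genes listed as partners or relatives of *Ankrd1* were paired, and both encode proteins that bind titin. *Trim63*, which encodes the ubiquitin ligase MuRF1, was at 165, 177 and 159 CPM in transgenic pools 1, 2 and 3 and at 131 and 133 CPM in WT pools, a log2 fold change of 0.34 (limma adjusted p = 0.00595). *Tcap*, which encodes the titin cap protein telethonin, was at 72.1, 69.9 and 65.7 CPM in transgenic pools and at 55.9 and 57.0 CPM in WT pools, a log2 fold change of 0.29 (limma adjusted p = 0.0311). Each was higher in all transgenic pools. Both were named through the study's list of changed genes, so a direction shared with *Ankrd1* is not independent evidence. Both calls were lost without WT pool 1 (limma adjusted p = 0.161 for *Trim63* and 0.258 for *Tcap*) and without WT pool 2 (0.122 and 0.216), and that of *Tcap* also without transgenic pool 1 (0.0944) or 2 (0.0776). The log2 fold changes stayed between 0.29 and 0.37 for *Trim63* and between 0.26 and 0.33 for *Tcap*.

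Genes that respond to stretch or belong to the fetal programme of cardiomyocytes were paired for 3 of 12. *Cyr61*, a secreted matrix protein induced by load, was at 41.7, 39.4 and 39.1 CPM in transgenic pools 1, 2 and 3 and at 30.8 and 31.5 CPM in WT pools, a log2 fold change of 0.36 (limma adjusted p = 0.0241). This call was lost without WT pool 1 (0.226), WT pool 2 (0.169) or transgenic pool 1 (0.0760), while the log2 fold change stayed between 0.33 and 0.38. *Fhl2* and *Edn1* were not past the threshold, with log2 fold changes of 0.24 and 0.48 (limma adjusted p = 0.0568 and 0.0653). In the 16 alternatives, *Fhl2* was past it in 4 and *Edn1* in 2. Of the 6 ventricular chamber genes, *Hand1*, *Hand2* and *Kcne1* were paired. *Kcne1*, which encodes a potassium channel subunit, was at 107, 97.9 and 83.2 CPM in transgenic pools and at 72.9 and 76.3 CPM in WT pools. Its transgenic pools were all above the WT pools, but the study's list had selected it for such a difference. Transgenic pool 3 was the lowest of the 3, as for *Ankrd1*. The log2 fold change was 0.36 (limma adjusted p = 0.0350). This call was lost without transgenic pool 1 (limma adjusted p = 0.101) or 2 (0.0833) and without WT pool 1 or WT pool 2. The log2 fold changes of those fits were 0.27 to 0.39. The call held without transgenic pool 3, at a log2 fold change of 0.46 (limma adjusted p = 0.00294).

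Of 11 other genes listed for trabecular and conducting myocardium, 4 are given here, each lower in transgenic hearts. They are known by name only because the study lists them as changed, so their direction is not that of the whole list. *Etv1*, a transcription factor of fast conducting myocardium, was at 28.6, 28.9 and 30.9 CPM in transgenic pools 1, 2 and 3 and at 39.9 and 40.5 CPM in WT pools, a log2 fold change of -0.44 (limma adjusted p = 0.00816). It was lower in all 3 transgenic pools than in both WT pools. Its difference from *Nppa*, a trabecular marker that overlapped, was not tested, and *Etv1* was selected on these pools. The call was lost without WT pool 1 (limma adjusted p = 0.146) and without WT pool 2 (0.148), at log2 fold changes of -0.45 and -0.43 that were about as large. *Gja5*, *Bmp10* and *Sema3a*, from the same list, had log2 fold changes of -0.55, -1.18 and -0.86 (limma adjusted p = 0.00494, 0.000626 and 0.00919). All 3 were lower in every transgenic pool. They lost their calls without WT pool 1 (0.143, 0.0525 and 0.247), and *Gja5* and *Sema3a* also without WT pool 2 (0.159 and 0.106), with log2 fold changes below 0 throughout.

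Of 6 genes of the compact layer, the 3 paired (*Hey2*, *Mycn* and *Tbx20*, *Tbx20* most abundant in CPM) summed to 1195, 1204 and 1134 CPM in transgenic pools 1, 2 and 3 and to 878 and 941 CPM in WT pools. This sum was higher in every transgenic pool. Its genes were named through the study's list of changed genes, so its likeness to *Irx4* is not independent evidence. *Mycn* by itself had a log2 fold change of 0.34 (limma adjusted p = 0.0478). This call was lost without transgenic pool 1 (limma adjusted p = 0.1275) or 2 (0.121) and without WT pool 1 or WT pool 2. Its log2 fold change stayed between 0.251 and 0.425. The other Iroquois genes were not analysed here. *Prkg1*, which encodes the cyclic GMP-dependent kinase that acts below the natriuretic peptide receptors, was the 1 paired gene of 9 in that pathway. It was at 9.28, 6.44 and 7.88 CPM in transgenic pools and at 12.4 and 12.6 CPM in WT pools, a log2 fold change of -0.65 (limma adjusted p = 0.0412). The call of *Prkg1* was lost without transgenic pool 2 (0.132), transgenic pool 3 (0.0557), WT pool 1 (0.264) or WT pool 2 (0.291), while the log2 fold change stayed between -0.77 and -0.52.

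Markers of the cells that a ventricle with its valves can hold are given as values, and their sums were not tested. All paired markers come from the genes that the study lists as changed in these pools. The direction of a sum was thus selected on these samples and does not measure the amount of a cell type. The paired atrial marker, *Myl7*, 1 of 7 listed, was at 653, 869 and 617 CPM in transgenic pools 1, 2 and 3 and at 384 and 373 CPM in WT pools, a log2 fold change of 0.90 (limma adjusted p = 0.000166) that was past the threshold with each pool left out. *Myl7* encodes a myosin light chain that the early ventricle also expresses, and the other atrial markers were not analysed here. Transgenic pool 2 had the highest *Myl7* value and also the highest *Ankrd1*, *Irx4* and *Hopx* values of the 5 pools, but not the highest *Nppa* or *Nppb* value. For endothelium and endocardium, the 3 paired markers of 6 (*Cdh5*, *Tie1* and *Kdr*, with *Cdh5* the most abundant in CPM) summed to 506, 426 and 499 CPM in transgenic pools and to 603 and 590 CPM in WT pools. For smooth muscle and pericytes, 3 of 5 (*Pdgfrb*, *Rgs5* and *Myh11*, *Pdgfrb* most abundant in CPM) summed to 138, 138 and 157 CPM in transgenic pools and to 188 and 185 CPM in WT pools. Both sums were lower in every transgenic pool. As single genes, *Kdr*, *Tie1*, *Rgs5* and *Myh11* were past the threshold (log2 fold changes of -0.46, -0.31, -0.48 and -0.71, limma adjusted p = 0.00286, 0.0277, 0.00890 and 0.0204), and the most abundant ones, *Cdh5* and *Pdgfrb*, were not (limma adjusted p = 0.0563 and 0.0519). The calls of these 4 genes were lost without WT pool 1 (0.108, 0.280, 0.220 and 0.258) and without WT pool 2 (0.116, 0.219, 0.133 and 0.154), and those of *Tie1* and *Myh11* also without transgenic pool 2 (0.0624 and 0.0662). All 4 stayed lower in each of these fits. *Cdh5* was past the threshold without transgenic pool 1 (limma adjusted p = 0.0448) or 3 (0.0432), and *Pdgfrb* without transgenic pool 3 (0.0476). Each of these 2 was past it in 6 of 16 alternatives. For valve mesenchyme and fibroblasts, 2 of 7 (*Pdgfra* and *Dcn*, *Dcn* most abundant in CPM) summed to 264, 256 and 282 CPM in transgenic pools and to 311 and 332 CPM in WT pools, where *Pdgfra* was past the threshold (log2 fold change -0.34, limma adjusted p = 0.00919, lost without WT pool 1 or 2 at 0.171 and 0.167) and *Dcn* was not (0.0736). *Dcn* was past the threshold in 2 of 16 alternatives. The other mesenchyme markers listed were not analysed here. From sections at E14.5, the study reports a larger atrioventricular canal region with more cells in transgenic hearts. The epicardial marker *Tbx18*, 1 of 5, was at 87.3, 88.1 and 86.2 CPM in transgenic pools and at 65.3 and 69.7 CPM in WT pools. For atrioventricular canal myocardium, 3 of 7 (*Tbx3*, *Bmp2* and *Cacna1g*, *Cacna1g* most abundant in CPM) summed to 134, 148 and 131 CPM in transgenic pools and to 83.3 and 74.1 CPM in WT pools. The canal sum and *Tbx18* were thus higher, and the sum of *Pdgfra* and *Dcn* lower, in every transgenic pool. As single genes, *Tbx18*, *Cacna1g* and *Bmp2* were past the threshold (log2 fold changes of 0.37, 0.77 and 0.99, limma adjusted p = 0.00476, 1.12e-05 and 0.000712). The call of *Tbx18* was lost without WT pool 1 (0.158) or 2 (0.0549), and those of *Cacna1g* and *Bmp2* held with any 1 pool left out. The canal sum includes *Bmp2*, whose transgene reads cannot be separated from those of the native gene. *Ryr2*, the 1 paired cardiomyocyte marker of 7, was at 425 to 480 CPM in transgenic pools and at 548 and 556 CPM in WT pools. It was lower in every transgenic pool, with a log2 fold change of -0.28 (limma adjusted p = 0.0175, lost without WT pool 1 or 2 at 0.222 and 0.245). Every paired marker had reads in all 5 pools. The deposited genes are those above a low level, so this was nearly fixed beforehand and says little about the tissue. The part of any of these cell types in the values of the 5 genes, *Nppa* included, was not tested. Markers of red cells, leukocytes and glia were not analysed here.

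The likeness of profiles was described by the root mean square difference of log2(CPM + 0.5) over the 5 pools, each gene centred on its own mean, among 376 paired genes with a mean of at least 10 CPM. Because nearly all of these were selected by the study for a difference between these pools, genes that differ by genotype are favoured. *Irx4* was nearest to *Rcsd1* (0.026), which encodes a protein that binds the actin capping protein, followed by *Acat1* (0.028), a mitochondrial enzyme of ketone metabolism, and *Trim63* (0.035). *Rcsd1* was at 165, 170 and 152 CPM in transgenic pools 1, 2 and 3 and at 136 and 131 CPM in WT pools. Like *Irx4*, it was highest in transgenic pool 2, and its lowest transgenic value was in pool 3. *Ankrd1* was nearest to *St3gal5* (0.075), *Pth1r* (0.081) and *Kcne1* (0.091). *St3gal5*, which encodes a ganglioside synthase, was at 48.8, 53.7 and 42.5 CPM in transgenic pools and at 35.9 and 39.9 CPM in WT pools, the same order of pools as *Ankrd1*. Over all 10089 genes at that level, named or not, 1 gene was nearer to *Irx4* than *Rcsd1* was, and 1 was nearer to *Ankrd1* than *St3gal5* was. *Nppb* and *Hopx* were each nearest to the other (0.072), but 876 genes were nearer to *Nppb* and 2064 were nearer to *Hopx*. The paired gene nearest to *Nppa* was *Mtap1b* (0.076), with 870 genes nearer, so the named neighbours of *Nppa*, *Nppb* and *Hopx* are not close ones.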

How the data were processed

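Per the labels and the study's methods, the authors removed adaptors from single-end Illumina reads with cutadapt, quantified genes with RSEM over GRCm38 and used edgeR. The values they deposited are CPM of a scaled library size, for genes above a low level. The worth of 1 read was found in each library from the differences between its values, and after division by it all values (100%) were within 0.01 of a whole read. The main test was limma (version 3.58.1, R 4.3.3) on log2(CPM + 0.5), by lmFit and then eBayes with trend, two-sided and with no covariates, with Benjamini-Hochberg adjustment over 12857 genes and a threshold of 0.05. The pseudocount makes changes of weakly expressed genes look smaller. Requiring a CPM of at least 1 in at least 2 pools removed 0 genes. edgeR 4.0.16 and DESeq2 1.42.0 served as alternatives on the recovered reads and called 485 genes (edgeR exact), 398 (edgeR quasi-likelihood) and 229 (DESeq2). Other alternatives changed the pseudocount (0.1 or 1), the filter (none, or a mean CPM of at least 5), the variance trend or the scaling (equal totals, quantiles), added the pool number as a block, or left out a pool. The fit was tested on simulated data. The members, the related genes and the cell markers were chosen with earlier results of these data known. Genes named are the 5 members, listed genes with a paired identifier, and the 3 paired genes most like each member. Positions are those of RefSeq for GRCm38.p6, matched by symbol. Counting errors cover reads only, since PCR copies are not recognised. A gene of the lists is not reported here.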

Additional observations from a re-analysis of the deposited data

How the results depend on the processing

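Leaving the filter off repeats the main comparison, since the filter removed 0 genes, and is not counted. Of the other 15 alternatives, *Ankrd1* was past the threshold in 8 and *Irx4* in 12, and *Nppa*, *Nppb* and *Hopx* in 0. Without the variance trend, limma called 10 genes (10 higher and 0 lower, with 1846 at an unadjusted p under 0.05) against 362 (157 higher and 205 lower) in the main comparison, and the log2 fold changes of *Ankrd1* (0.43, adjusted p = 0.302) and *Irx4* (0.33, adjusted p = 0.190) were not past the threshold. *Ankrd1* was also short of it with quantile normalization (0.42, adjusted p = 0.0562) and with DESeq2 (0.44, adjusted p = 0.248), which called 229 genes in all. The adjusted p of *Ankrd1* ran from 1.44e-06 to 0.352 over the alternatives and that of *Irx4* from 0.00233 to 0.216. With libraries rescaled to the same total, which gave 125 higher and 251 lower genes, *Hopx* changed sign (-0.016). The cause of these shifts was not tested.

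With each pool left out in turn, between 43 and 464 genes were called, with 226 without transgenic pool 2, 45 without WT pool 1 and 43 without WT pool 2, where the lone WT pool is assumed to vary like the transgenic pools. The log2 fold changes ran from -0.175 to -0.050 for *Nppa*, from -0.058 to 0.12 for *Nppb*, from 0.34 to 0.57 for *Ankrd1*, from 0.30 to 0.37 for *Irx4* and from -0.043 to 0.038 for *Hopx*. *Nppb* turned negative without transgenic pool 1 (-0.0073) and WT pool 1 (-0.058), and *Hopx* without transgenic pool 2 (-0.043) and WT pool 1 (-0.032).

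With the replicate block, 655 genes were called. Transgenic pool 3 has no WT pool of its number and is in effect dropped from that fit, so the log2 fold changes (*Nppa* -0.175, *Ankrd1* 0.57, *Irx4* 0.37) are those without it. Pools of the same number did not deviate together (r over genes of -0.033 for pool 1 and -0.067 for pool 2), so the numbers were not taken to pair the pools. The block changed no call of the 5 genes.

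With 488 to 8654 reads per gene and pool, counting error was at most 4.53% of a value. Counting makes up much of the spread of *Irx4*, and little of that of *Ankrd1*, whose variance was 32.9 times that of counting between WT pools and 168 times among transgenic pools.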
